A study of Mus musculus with 30 samples.

Results

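The genes followed through the peak lists encode 10 lineage regulators: Gata4, Gata6, Sox17 and Foxa2 of the endoderm, Eomes, Tbx5 and Nkx2-5 of the mesoderm and heart, and Pax6, Sox1 and Neurog2 of the neural lineage. The members are these 10 genes of the 21911 protein-coding genes of the GENCODE M21 annotation, and each was taken as its gene body with 20 kb to either side, called its window. The windows held 1015 of the 1428772 peaks in the 20 lists. The cells were E14 mouse embryonic stem cells of the genotype CTCF AID, in which CTCF carries a degron that IAA, an auxin, directs to degradation. CTCF and the cohesin subunit SMC1A were profiled by ChIP-seq in these cells, with 1 library at 0 h (without IAA) and 1 at 12 h of IAA for each. The genotypes CTCF AID and biotin-CHD4, -CHD8, -SMARCA4 and -SMARCA5 each gave 2 libraries at either time, so every remodeler library comes from degron cells, and the 0 h controls carry the degron too. All cells grew without serum, with LIF, the MEK inhibitor PD0325901 and the GSK3 inhibitor CHIR99021, which hold mouse stem cells in the naive state. The labels do not say whether each tagged line is a single clone, or whether replicate libraries came from separate cultures, so p-values measure only the spread between these libraries. No expression values were analysed here, so whether the 10 genes were silent in these cells was not tested.

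The 10 genes encode DNA-binding transcription factors that direct cells into a germ layer or organ, and pluripotent cells are known to keep them off. Their promoters are mostly rich in CpG and are textbook targets of Polycomb repression in embryonic stem cells. CHD4 is the ATPase of the NuRD complex, SMARCA4 that of the esBAF complex and SMARCA5 that of ISWI complexes, while CHD8 is a CHD-family ATPase that has been described as a CTCF partner. CTCF is a zinc-finger protein that halts cohesin on DNA and so anchors chromatin loops.

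In the endoderm set, Gata4 (ENSMUSG00000021944.15) lies at chr14:63198922-63271692 on the minus strand of GRCm38 and Gata6 (ENSMUSG00000005836.10) at chr18:11052064-11085635 on the plus strand. Sox17 (ENSMUSG00000025902.13) lies at chr1:4490931-4497354 and Foxa2 (ENSMUSG00000037025.11) at chr2:148042877-148046969, both on the minus strand. In the mesoderm and heart set, Eomes (ENSMUSG00000032446.14) lies at chr9:118478212-118486132 and Tbx5 (ENSMUSG00000018263.11) at chr5:119832668-119885219, both on the plus strand, and Nkx2-5 (ENSMUSG00000015579.5) at chr17:26838664-26845009 on the minus strand. The neural genes Pax6 (ENSMUSG00000027168.21, chr2:105668900-105697364), Sox1 (ENSMUSG00000096014.1, chr8:12395295-12400126) and Neurog2 (ENSMUSG00000027967.8, chr3:127633135-127635631) are on the plus strand. The windows were 42497 to 112771 bp long. The Gata4 window also holds the protein-coding genes Fdft1 and Neil2, the Pax6 window Elp4 and the Neurog2 window Zgrf1, and a peak cannot be assigned to either gene of such a window.

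CTCF peaks marked 9 of the 10 windows at 0 h and nearly all were missing from the 12 h list. The 0 h list held 17 CTCF peaks in these windows: 4 at Eomes, 3 each at Gata4 and Neurog2, 2 at Sox17, and 1 each at Gata6, Foxa2, Tbx5, Pax6 and Sox1. Nkx2-5, a homeobox gene of heart development, had no CTCF peak, like 30.7% of all protein-coding windows. The median density was 2.25 CTCF peaks per 100 kb in the members and 1.91 in all windows. Of the 17, 1 overlapped a 12 h peak, a share of 5.88% (exact Clopper-Pearson 95% interval 0.149 to 28.7%, which covers counting only), beside 7.44% of the whole 0 h list (2228 of 29934 peaks). SMC1A had 8 peaks at 0 h: 3 at Eomes, 2 each at Sox1 and Neurog2, and 1 at Tbx5. The other members had no SMC1A peak, like 46.3% of all protein-coding windows. None of the 8 had a 12 h peak, beside 0.0598% of the whole list (10 of 16724 peaks). Of these 8 SMC1A peaks, 7 overlapped a CTCF peak, and the exception lay in an intron of Sox1ot at chr8:12400769-12401167. CTCF and SMC1A have 1 library for each time, so these differences have no replicate check.

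The 1 CTCF peak of the 17 that overlapped a 12 h peak lay in Neurog2, the proneural bHLH gene. It spanned chr3:127633918-127634522 (GRCm38), and its summit was 1141 bp downstream of the start site, in the coding exon. Its fold enrichment in the authors' list was 41.3, which placed it at the 98th percentile of the 0 h list by −log10 p, and the 12 h peak at chr3:127634055-127634484 had a fold enrichment of 17.6. In the whole 0 h list, 55.4% of the peaks from the 95th percentile upward overlapped a 12 h peak, against 32.0% of those from the 90th to the 95th and 0.161% of those below the 50th. The other 2 Neurog2 peaks stood at the 90.3rd percentile (chr3:127625242-127625684, 7686 bp upstream) and the 75.7th (chr3:127639799-127640283, 6902 bp downstream) and had no 12 h peak. The strongest CTCF peak of each other window stood lower, at the 82.5th percentile at Eomes (chr9:118489585-118490107), the 75.5th at Gata4 (chr14:63255695-63256343), the 73.8th at Sox17 (chr1:4491887-4492433) and the 56.8th at Sox1 (chr8:12391506-12392032). Those of Foxa2 (chr2:148048452-148048881), Tbx5 (chr5:119815217-119815596), Gata6 (at its start site) and Pax6 (chr2:105687581-105687835) stood at the 55.6th, 45.2nd, 36.6th and 15.6th.

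The CTCF matches below were read from GRCm38 within 100 bp of the summits and are shown to set the site kept at Neurog2 beside sites that were not listed at 12 h. Each runs 5′ to 3′ on the strand of the match, and capitals mark the 14 bp that fitted a motif model built from the 5000 strongest 0 h CTCF peaks. This model was not compared with a published CTCF motif. It matched 85.5% of the remaining 0 h peaks on either strand and 3.53% of the same windows shifted by 100 kb.
Neurog2 coding exon, chr3:127634257-127634286, minus strand, kept at 12 h: cgtgaagaGCGCCCCCTGGAGGccaccggc
Neurog2 upstream, chr3:127625426-127625455, minus strand: aggtcgcaGCTCCCCCTGGCGGgacttggc
Neurog2 downstream, chr3:127640023-127640052, plus strand: tctccgcaGCGCCACCGGGCGGtcgctgtc
Eomes exon, chr9:118479228-118479257, plus strand: gctccatgCTGCCCCCCGGTGGattccccg
Eomes downstream, chr9:118489843-118489872, plus strand: ggtgctctCCGCCATCTGGTGGccacagcg
Foxa2 upstream, chr2:148048636-148048665, plus strand: gtgacaggGCGCCCCCTGTCGGccgcgagg
Sox1 upstream, chr8:12391751-12391780, minus strand: ggccgcgaTCGCCGTCTGCTGGccgccacc
Tbx5 upstream, chr5:119815385-119815414, minus strand: gataactaGCTCCCTCTTCTGGcctctgca

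Of the 17 CTCF peaks, 12 held a match. The site kept at Neurog2 had the highest match score of the 12, a log2 odds of 19.5, followed by 18.99 at the downstream Eomes peak, which had no 12 h peak. The lowest score was 12.6, at a Gata4 peak. No match was found at 5 peaks, among them the peak at the Gata6 start site and the strongest peaks of Gata4, Sox17 and Pax6.

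Remodeler peaks lay at 15 of these 17 CTCF sites at 0 h, and mostly in fewer libraries at 12 h. Counted at the summit with 100 bp to either side, the 17 sites had 75 of 136 possible pairs of site and library at 0 h and 54 at 12 h. The number of libraries was lower at 12 h at 13 sites, higher at 2 (Eomes and Pax6) and 0 at both times at 2 (Gata4 and Sox17). Over all 29934 CTCF peaks it was lower at 46.0% and higher at 6.49%, with a mean of 2.17 libraries at 0 h and 1.36 at 12 h, against 4.41 and 3.18 at the 17 sites. A site without a remodeler peak at 0 h cannot be lower at 12 h, so these shares depend on the level at 0 h. At the exonic and the upstream Neurog2 site, all 8 libraries had a peak at 0 h and 5 at 12 h. The exonic site of Eomes, a T-box gene of mesendoderm, lay 894 bp downstream of the start site and had 8 and 7. These counts carry no test, and the sites of a window share its libraries.

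**Figure D1:**
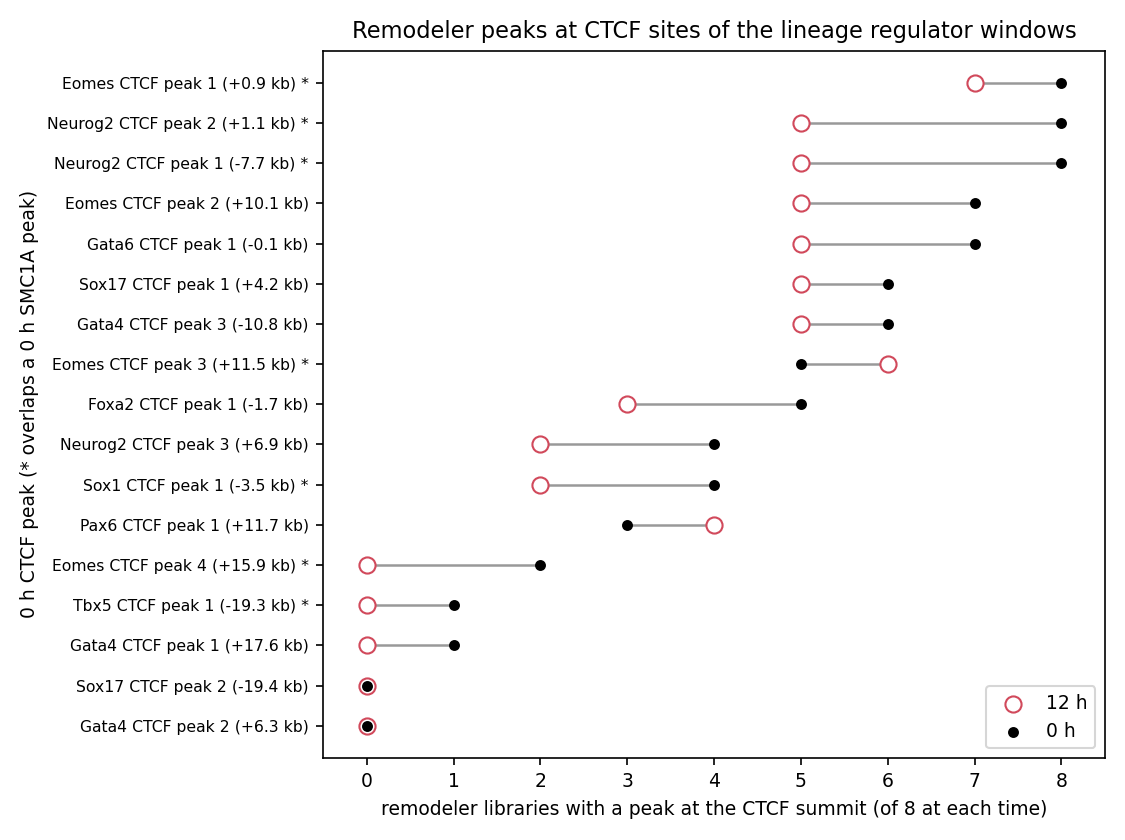
Number of remodeler libraries, of 8 at each time, with a peak at the summit of each of the 17 CTCF peaks at 0 h (filled points) and 12 h (open circles), with the distance from the gene's nearest start site in kb. The open circle lies to the left at 13 sites, to the right at 2 and on the filled point at 2.

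Remodelers covered these loci to very different extents. The level used here is the percent of a window's bases inside peaks of a library, so it is per length. Averaged over the 16 remodeler libraries it was 14.3% ± 5.98 (SD, n = 16) at Sox1, 14.1% ± 8.84 at Eomes, 8.82% ± 6.34 at Pax6 and 6.43% ± 5.30 at Foxa2. It was 5.996% ± 4.21 at Nkx2-5, 5.03% ± 3.02 at Neurog2, 4.23% ± 2.58 at Sox17, 3.55% ± 2.59 at Gata6, 3.33% ± 1.71 at Gata4 and 0.756% ± 0.835 at Tbx5. The SD spans 4 remodelers and both times, and the means of neighbours in this order differed by less than their SDs, except those of Gata4 and Tbx5. The median of all protein-coding windows was 2.92%, and 9 of the 10 members lay above it. The exception was Tbx5, a T-box gene of heart and forelimb.

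The pluripotency genes Pou5f1, Sox2 and Nanog, measured in the same way, were covered over 31.5% ± 11.9, 36.1% ± 20.4 and 33.7% ± 14.6 of their windows (SD, n = 16). Their median percentile among all windows was 99.4, 99.5 and 99.6. Among the members Eomes reached a median percentile of 91.3 and Sox1 89.0. Sox1, a SoxB1 gene of early neuroectoderm, was never below the 81.0th percentile, while Eomes ranged from the 64.0th to the 97.4th and Tbx5 from 0 to the 51.2nd.

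**Figure D2:**
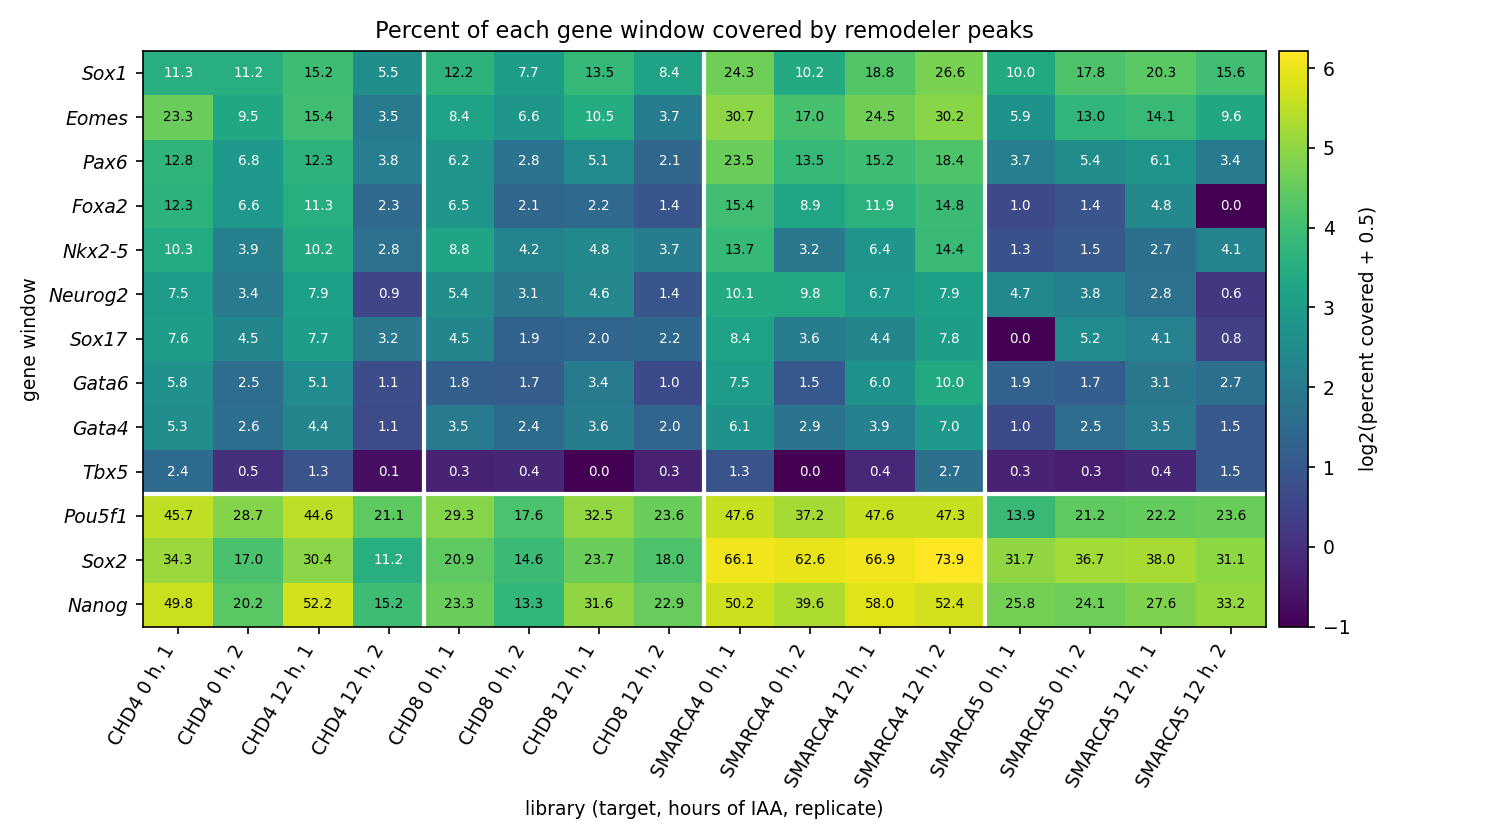
Percent of each gene window (rows) covered by the peaks of each of the 16 remodeler libraries (columns, by target, hours of IAA and replicate), with colour on a log2 scale and the percent printed in each cell. Sox1 and Eomes are the most covered members at a mean of 14.3% and 14.1%, Tbx5 the least at 0.756%, and Pou5f1, Sox2 and Nanog stand above all members at 31.5% to 36.1%.

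Within the endoderm set, levels were modest and replicate libraries differed. Gata4, a zinc-finger gene of endoderm and heart, had SMARCA4 coverage of 6.07% and 2.89% at 0 h and 3.93% and 7.002% at 12 h. Gata6, its paralog in primitive endoderm, had 7.46% and 1.496% at 0 h and 6.02% and 9.96% at 12 h. At both genes the 0 h and 12 h values overlapped. Sox17, an HMG-box gene of definitive endoderm, was covered by CHD4 over 7.56% and 4.49% at 0 h and over 7.70% and 3.16% at 12 h. Its SMARCA5 coverage was 0% and 5.17% at 0 h and 4.06% and 0.799% at 12 h. The Sox17 groups overlapped for both remodelers. Foxa2, a forkhead pioneer factor gene, had SMARCA4 coverage of 15.4% and 8.91% at 0 h and 11.9% and 14.8% at 12 h. Its SMARCA5 coverage was 1.02% and 1.38% at 0 h and 4.75% and 0% at 12 h, so both 12 h libraries lay outside the 0 h values, on opposite sides.

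Within the mesoderm and heart set, Eomes had CHD4 coverage of 23.3% and 9.55% at 0 h and 15.4% and 3.54% at 12 h. Its SMARCA4 coverage was 30.7% and 17.0% at 0 h and 24.5% and 30.2% at 12 h. Both Eomes groups overlapped. The CHD4 lists differed by replicate number, with wide peaks in replicate 1 and narrow ones in replicate 2 at either time, and within each number the 12 h value of CHD4 at Eomes was the lower. Nkx2-5 had SMARCA5 coverage of 1.25% and 1.52% at 0 h and 2.66% and 4.14% at 12 h, with the 12 h libraries higher. Tbx5 had SMARCA5 coverage of 0.323% and 0.266% at 0 h and 0.363% and 1.52% at 12 h. In both genes the SMARCA5 libraries of 12 h lay above those of 0 h, as they did in 24.5% of all tested windows. The Tbx5 CHD8 values, 0.327% and 0.351% at 0 h and 0% and 0.293% at 12 h, were lower at 12 h, as in 9.09% of all tested windows.

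Within the neural set, Pax6, a paired-box gene of eye and forebrain, had SMARCA4 coverage of 23.5% and 13.5% at 0 h and 15.2% and 18.4% at 12 h. Sox1 had SMARCA5 coverage of 9.98% and 17.8% at 0 h and 20.3% and 15.6% at 12 h. The groups overlapped at both genes. Neurog2 had SMARCA4 coverage of 10.1% and 9.80% at 0 h and 6.71% and 7.90% at 12 h. Its SMARCA5 coverage was 4.66% and 3.82% at 0 h and 2.75% and 0.593% at 12 h. Both remodelers were lower at 12 h at Neurog2 with no overlap, as were 4.67% of all tested windows for SMARCA4 and 6.77% for SMARCA5. Its CHD8 coverage was 5.40% and 3.12% at 0 h and 4.59% and 1.40% at 12 h, and its CHD4 coverage 7.47% and 3.37% at 0 h and 7.86% and 0.930% at 12 h, so these groups overlapped. Within replicate numbers, the 12 h value was the lower in both for CHD8 and in replicate 2 alone for CHD4.

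No member window passed the test of a change between 0 h and 12 h. The test was limma on log2(percent covered + 0.5), each library centred on its median over the tested windows, in all windows with a mean coverage of at least 0.5%. All 10 members were among the 16649 tested windows. For the mean of the 4 remodelers, 0 members were lower (background 0.024%) and 0 higher (background 0.0661%) at a Benjamini-Hochberg adjusted p under 0.05. At an unadjusted p under 0.05 there was 1 member, Neurog2, among 2207 of all windows. The exact permutation test within remodelers called 0 members and 0 of all 16649 windows, with a smallest adjusted p of 0.178. Since no window reached its threshold, that count says nothing particular to the members. At an unadjusted p under 0.05 in the permutation test there was 1 member, Neurog2, among 2116 of all windows.

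Neurog2 had the largest estimated change of the 10 in this fit. Its log2 coverage differed by −0.80 ± 0.24 (SE; 95% interval −1.31 to −0.29) between 12 h and 0 h over the 4 remodelers, with an adjusted p of 0.204 in limma. The exact two-sided permutation p was 0.0108 (adjusted 0.253), where 0.00154 is the smallest that the 1296 relabellings can give. The estimate was below 0 in each remodeler: −1.53 for SMARCA5, −0.71 for SMARCA4, −0.56 for CHD8 and −0.39 for CHD4. Within remodelers, alternatives at Neurog2 were compared for SMARCA5 and SMARCA4 but not for CHD8 and CHD4. The direction turned under 1 alternative in each of the former. SMARCA5 stood at 0.35 when peaks had a −log10 q of at least 5, and SMARCA4 at 0.027 when summits were counted. Leaving out 1 library gave −2.16 (without SMARCA5 replicate 1 of 12 h) to −0.91 (without replicate 2) for SMARCA5. With the 40000 strongest peaks of every list the mean change was −1.02 at Neurog2 and −1.08 at Sox17. Pax6 (−0.69, against −0.61 at Neurog2) came first with a −log10 q of at least 5, and Foxa2 (−0.37, against −0.32) with summits.

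The other 9 members had estimates from −0.42 to 0.25, and all 9 intervals included 0. Foxa2 stood at −0.42 ± 0.34 (SE; interval −1.16 to 0.31), Pax6 at −0.25 ± 0.14 (−0.55 to 0.06) and Eomes at −0.18 ± 0.16 (−0.53 to 0.17). Sox17 and Gata4 stood at −0.05 each, with intervals of −0.83 to 0.73 and −0.36 to 0.25. The Sox17 and Pax6 values moved with the choice of peaks: with a −log10 q of at least 5 they were −0.59 and −0.69, and with equal list length −1.08 and −0.72 (adjusted p 0.389 and 0.436 in limma). Tbx5 (0.06; −0.60 to 0.73), Sox1 (0.14; −0.18 to 0.46), Nkx2-5 (0.16; −0.32 to 0.63) and Gata6 (0.25; −0.19 to 0.70) had estimates above 0. The median over the members was −0.05 and that over all tested windows 0.01. The Foxa2 value depended on the SMARCA5 libraries of 12 h. Without replicate 2, the library at 0%, its change was −0.04. Without replicate 1, which leaves the 0% library alone in that group, Foxa2 had a change of −0.81 with an adjusted p of 0.0426 in limma, and 197 of all windows were called in place of 15.

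**Figure D3:**
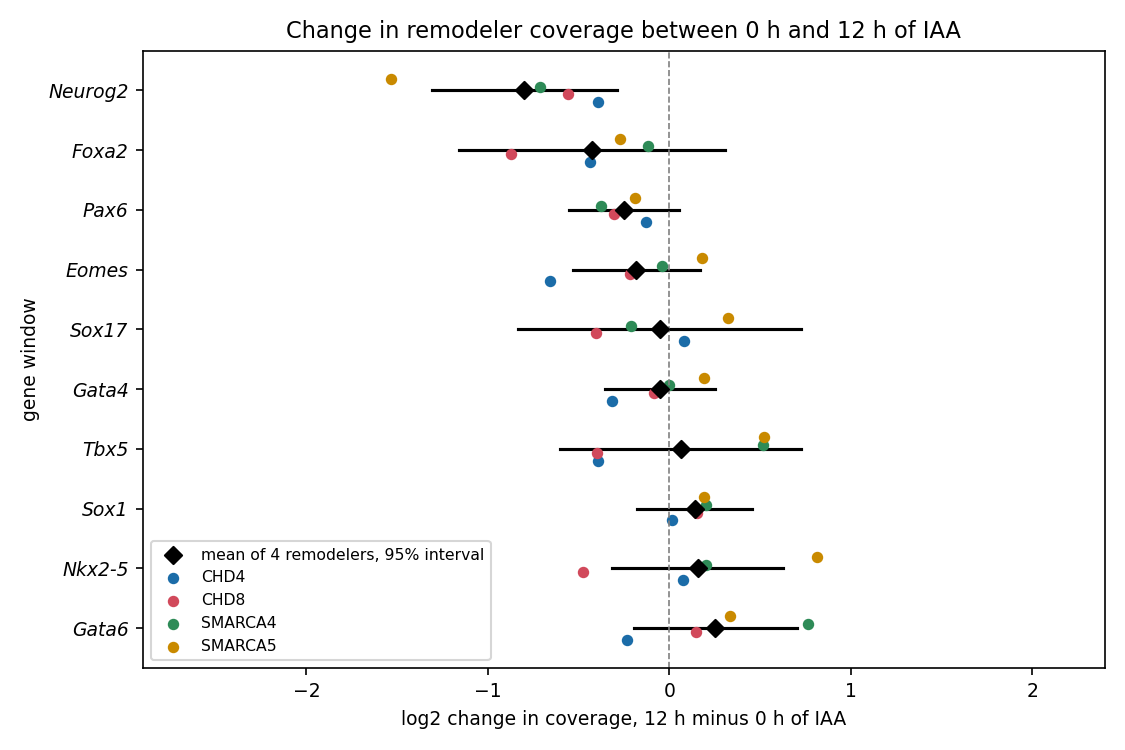
Change in log2 coverage of each member window, 12 h minus 0 h, as the mean over 4 remodelers with its 95% interval (black) and for each remodeler (coloured points). Neurog2 is the lowest at −0.80, with all 4 remodelers below 0 in this fit (SMARCA5 is at 0.35 with −log10 q of at least 5 and SMARCA4 at 0.027 with summits), and the intervals of the other 9 members include 0.

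Taken singly, the remodelers gave no called member either. For CHD4, 0 members were called in limma (background 0%; at an unadjusted p under 0.05, 0 members and 562 windows), and for CHD8 also 0 (background 0%; 0 members and 663 windows unadjusted). For SMARCA4, 0 members were called (background 0.042%; 0 members and 1335 windows unadjusted). For SMARCA5, 0 members were called (background 0.835%; 1 member, Neurog2, and 2608 windows unadjusted). Without replicate 1 of SMARCA5 at 12 h, Foxa2 (−1.81, adjusted p 0.0228) and Neurog2 (−2.16, adjusted p 0.0342) were lower in SMARCA5 by limma. The test of a difference between the remodelers called 0 members (background 0%; 0 members and 1048 windows unadjusted).

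Counted by library values alone, both 12 h libraries lay below both 0 h libraries for SMARCA4 at 1 member, Neurog2 (background 4.67%), for SMARCA5 at 1, Neurog2 (background 6.77%), for CHD8 at 1, Tbx5 (background 9.09%), and for CHD4 at 0 (background 2.64%). They lay above for SMARCA5 at 3 members, Gata6, Tbx5 and Nkx2-5 (background 24.5%), and at 0 members for SMARCA4 (background 30.5%), CHD8 (background 11.9%) and CHD4 (background 0.252%). These counts use coverage before centring. Without centring the median of all windows was shifted by 0.26 in SMARCA4, 0.19 in SMARCA5 and −0.25 in CHD4 on the log2 scale. With 2 libraries a time in each remodeler, the smallest two-sided exact permutation p for a single remodeler is 0.33.

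Peaks at the promoters, taken as 1 kb to either side of an annotated start site, were found at nearly the same number of members at both times. Over the 10 members and 8 libraries a time, 64 of 80 pairs were occupied at 0 h and 62 at 12 h. In single remodeler libraries, 46.3% to 65.8% of all protein-coding genes were occupied at 0 h and 49.6% to 65.7% at 12 h. Eomes, Pax6, Sox1 and Neurog2 were occupied in all 16 remodeler libraries, as were 33.5% of all protein-coding genes. The number of such members was 1 within 250 bp of the start site, 2 with equal list length and 0 with a −log10 q of at least 5. Gata4, Gata6 and Foxa2 were occupied in 15. The median number of libraries was 15 over the members and 14 over all genes. For no remodeler was a member promoter occupied in both 0 h libraries and neither 12 h library, or the reverse. Such calls were rare among all genes, with losses at 1.18% for CHD4, 0.758% for CHD8, 0.411% for SMARCA4 and 0.662% for SMARCA5, and gains at 0.319%, 0.237%, 1.01% and 1.6%, so 0 of 10 is near the background.

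The remaining 3 promoters were thinly marked. Nkx2-5 was occupied in 8 libraries, in 1 of 2 for each remodeler and time. Sox17 was occupied in 7: all 4 CHD4 libraries, both SMARCA4 libraries of 0 h and 1 of 12 h, and no library of CHD8 or SMARCA5. Tbx5 was occupied in 2, a SMARCA4 library of each time. The only start site in the basic set of GENCODE M21, the set used here, lay inside the gene body for Tbx5 (chr5:119834663) and for Nkx2-5 (chr17:26841565). The 5′ ends of these gene bodies, chr5:119832668 and chr17:26845009, lay outside the promoters measured. The Gata4 start site with the highest CpG ratio, chr14:63245248, also lay inside its gene body. The sequence around the annotated Tbx5 start site was poor in CpG, with an observed-to-expected ratio of 0.121 over 500 bp to either side. The 10 members had a median ratio of 0.669 and all genes 0.606, and 8 members reached 0.6, as did 50.6% of all genes.

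To follow single sites, elements were defined as runs of bases inside peaks of at least 4 of the 16 libraries. The member windows held 63 of 98752 elements. Of the 63, 23 were in 12 or more libraries (36.5%, against 31.5% of all elements) and 8 in all 16 (12.7%, against 12.9%). At the start sites the elements in all 16 libraries were those of Eomes (chr9:118476811-118479905), Sox1 (chr8:12394667-12398065), Neurog2 (chr3:127632340-127634729), Gata6 (chr18:11052208-11055328) and Pax6, where it covered an internal start site (chr2:105674132-105678152). The start-site elements of Gata4 (chr14:63244638-63246791) and Foxa2 (chr2:148045571-148047140) were in 15, that of Nkx2-5 (chr17:26841130-26841567) in 8 and that of Sox17 (chr1:4497117-4497536) in 6. Tbx5 had no element at its annotated start site. An element at the start site of Golga4 (chr9:118505953-118507296) was also in all 16 and is counted with Eomes. It ran past the end of the Eomes window at chr9:118506132, and the Golga4 gene body lay outside that window.

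Several loci carried strong elements away from any start site. Eomes had an intergenic element of 3353 bp at chr9:118495422-118498774, 17078 bp from the nearest Eomes start site, in all 16 libraries. Sox1 had a 3011-bp element at chr8:12400404-12403414 in an intron of Sox1ot, also in all 16, which held the SMC1A peak without CTCF. Sox17 and Nkx2-5 had more libraries over their bodies than at their promoters: the element over the transcribed 3′ part of Sox17 (chr1:4491703-4493914) was in 15 and that over the 3′ end of Nkx2-5 (chr17:26838656-26839940) in 14. The Sox17 element held its strongest CTCF peak. At Gata4 the most shared element away from start sites, chr14:63240620-63241676 in the gene body, was in 15, and at Nkx2-5 an intergenic one at chr17:26849699-26851170 was in 14. At Pax6 (chr2:105690050-105691913) and Neurog2 (chr3:127625292-127625763) it was in 13, at Gata6 (chr18:11040054-11040780) in 11, at Tbx5 (chr5:119839057-119839657, intronic) in 10 and at Foxa2 (chr2:148048292-148049008, over its CTCF peak) in 9.

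**Figure D4:**
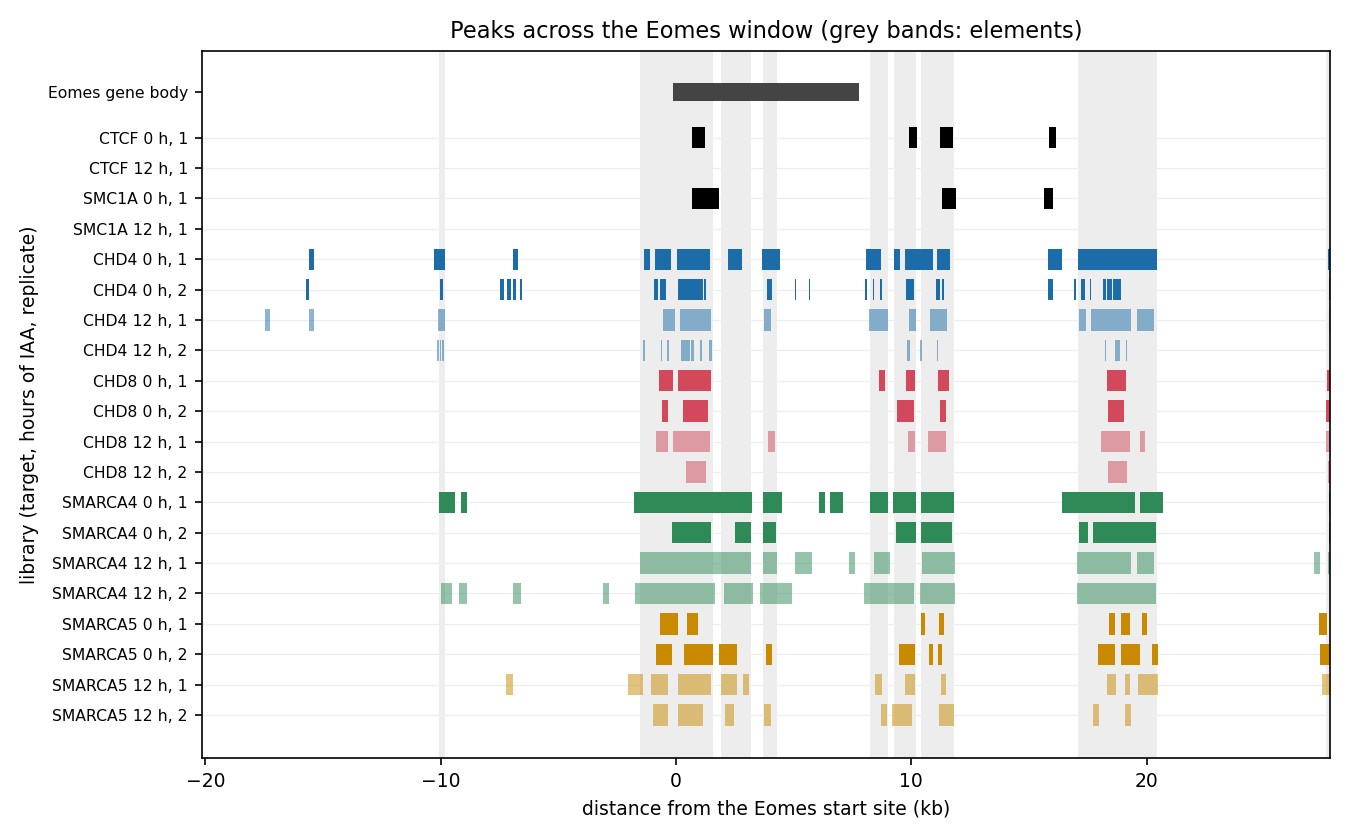
Peaks of the 20 lists across the Eomes window by distance from the Eomes start site in kb, a row for each library, with 12 h lists in paler colour and elements as grey bands. The 4 CTCF and 3 SMC1A peaks of 0 h have no counterpart at 12 h, while the start-site element and the 3353-bp element 17078 bp downstream carry peaks in all 16 remodeler libraries.

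Between the times, 18 of the 63 elements had fewer libraries at 12 h, 18 had more and 27 the same number (28.6%, 28.6% and 42.9%, against 24.5%, 37.5% and 38.0% of all elements), with 313 pairs of element and library at 0 h and 305 at 12 h. Of the 12 elements that held a 0 h CTCF peak, 7 had fewer libraries (58.3%, against 45.6% of all such elements), and of the 51 without, 11 had fewer (21.6%, against 22.2%). An element was called lost in a remodeler when both 0 h libraries and neither 12 h library had a peak, and gained in the reverse case. CHD4 lost 5 of the 63 (background 3.65%) and gained 1 (background 2.14%), and CHD8 lost 2 (background 2.19%) and gained 0 (background 2.25%). SMARCA4 lost 1 (background 1.36%) and gained 1 (background 5.66%), and SMARCA5 lost 1 (background 2.16%) and gained 2 (background 3.03%). No test was made of these counts. In any remodeler 7 of the 63 were lost (background 8.29%) and 4 gained (background 12.1%). With elements in at least 8 libraries, 1 of 52 was lost (background 6.14%) and 1 gained (background 9.75%).

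The elements lost in 2 remodelers were at Neurog2 and Pax6. The Neurog2 element, chr3:127639915-127640618, lay 6780 bp downstream over the third CTCF peak. It had both 0 h libraries of CHD4 and SMARCA5 and neither of 12 h, while SMARCA4 had a peak in all 4 libraries. The 2 SMARCA5 peaks of 0 h shared no base, and neither lay within 100 bp of the CTCF summit. When a peak had to cover the larger part of an element, SMARCA5 lost 0 of the 63 elements (background 1.86%). The Pax6 element, 192 bp at chr2:105692504-105692695 over an exon, had both 0 h libraries of CHD4 and SMARCA4, and no library at 12 h. The remaining 9 were chosen after their values were seen. CHD4 alone lost elements at Pax6 (chr2:105667598-105667740), Foxa2 (chr2:148029983-148030445) and Tbx5 (chr5:119845121-119845373). CHD8 alone lost the upstream Neurog2 element over a CTCF peak (chr3:127625292-127625763) and an exonic Foxa2 element (chr2:148044448-148044814). Gained were a CHD4 element at Sox17 (chr1:4496859-4496909), a SMARCA4 element at Foxa2 of 1 bp (chr2:148044272-148044272), and SMARCA5 elements at Eomes (chr9:118486597-118487341) and Gata6 (chr18:11048087-11048847).

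**Figure D5:**
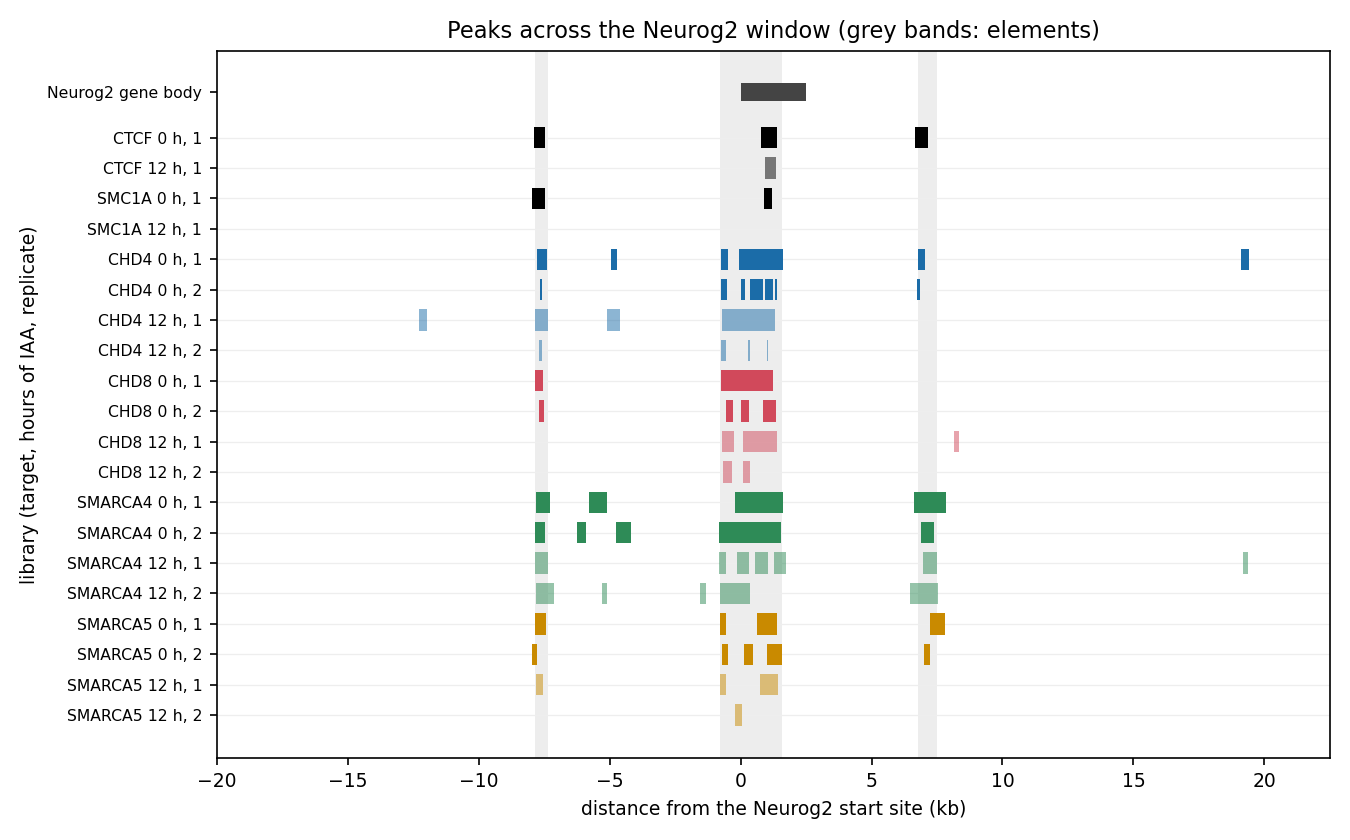
Peaks of the 20 lists across the Neurog2 window by distance from the Neurog2 start site in kb, a row for each library, with 12 h lists in paler colour and the 3 elements as grey bands. All 3 elements hold a 0 h CTCF peak, and the middle one, at the start site, is the only one with a CTCF peak at 12 h and the only one with a peak in all 16 remodeler libraries.

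The CHD4 losses rest on lists that differ in form. The median peak width was 433 and 119 bp in the CHD4 replicates of 0 h and 475 and 94 bp in those of 12 h, and the number of peaks ran from 40880 to 187294 over the 16 remodeler lists. With the 40000 strongest peaks of every list, 8 of 38 elements were lost in any remodeler (background 9.58%) and 2 gained (background 11.9%), and limma called 0 members (3 at an unadjusted p under 0.05, of the 9 that passed the filter). The part of peak width in the lost elements and in the coverage was not tested. A site without a listed peak can hold signal below the authors' threshold.

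Other regulators of the same layers were tested in the same fit. Of 31 genes, from Gata5 and Foxa1 to T, Mesp1 and Olig2, 28 passed the filter on coverage. The list also holds Sox2, which is set beside the members above as a pluripotency gene. For the mean of the 4 remodelers, limma called 0 lower and 0 higher (4 at an unadjusted p under 0.05), with a median change of −0.01 and a range from −0.87 to 0.25. In SMARCA5, 1 of the 28 was lower (background 0.835% in either direction). It was the endoderm GATA factor gene Gata5, with a change of −1.69 and an adjusted p of 0.0123 in limma, named after its value was seen.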

How the data were processed

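The data are 20 ChIP-seq peak lists of 30 samples; the 10 inputs were not analysed here. Each list belongs to 1 library, so replicates were not pooled. Per the submitters' processing notes, Trim Galore, Bowtie2, MACS2 and deepTools were used, with mm10 and hg38 named as builds; versions and parameters are not given in the sources used here. Per the layout of the deposited lists, column 7 holds fold enrichments (a ratio) and columns 8 and 9 are −log10 p and −log10 q as the authors' caller gave them; column 10, a distance to the summit, was used for positions. The lists give no depth. No peak of the main chromosomes ran past the GRCm38 chromosome ends, and the basic set of GENCODE M21 was used with that build.

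Coverage of windows, elements (gaps under 100 bp joined), promoters (overlap of at least 1 bp) and CTCF overlaps were computed with Python 3.11.15 and pysam 0.24.0. Changes were tested with limma 3.58.1 in R 4.3.3 over all 16649 windows, with 8 groups of remodeler and time sharing 1 estimate of spread and Benjamini-Hochberg adjustment over all windows. An exact two-sided permutation of times within remodelers was an alternative. The pseudocount was 0.5%. The functions were tested on simulated data.

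All 10 members are described. Elements named are those at the start site, the most shared away from start sites, and those lost or gained in 2 or more remodelers. Of the other regulators, the 2 with the largest called change in each direction were to be named. Of that list, 1 gene is not reported here. The members, lists and rules were chosen with earlier results of these data known. Alternatives covered the replicate block, centring, pseudocount, filter, peak threshold, equal list lengths, summit counts, window width, element and promoter rules, and leaving out each library.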

Additional observations from a re-analysis of the deposited data

How the results depend on the processing

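Over 29 alternatives the mean change kept its direction in 6 members (Gata6, Foxa2, Eomes, Pax6, Sox1 and Neurog2), and of 287 values 22 had the other sign; Tbx5 failed the filter with −log10 q of at least 5, equal list length and summits, which give no value for it. With 5 kb windows Gata4 stood at 0.10 and Sox17 at 0.12; with 50 kb windows Gata4 at 0.033 and Nkx2-5 at −0.033; Sox17 stood at 0.15 with a pseudocount of 0.1% and at 0.019 with summits. Leaving out 1 library gave −0.13 to 0.029 for Gata4, −0.43 to 0.32 for Sox17, −0.15 to 0.27 for Tbx5, −0.0084 to 0.32 for Nkx2-5 and −0.95 to −0.64 for Neurog2. For Neurog2, SMARCA5 stood at 0.35 with −log10 q of at least 5 and SMARCA4 at 0.027 with summits, and its mean change ran from −1.02 to −0.32 and the adjusted p from 0.0576 to 1.00 over all alternatives. A group left with 1 library was assumed to vary like the others. The number of members lower in the mean was 0, and 0 to 1 without 1 library; for SMARCA5 it was 0 to 2. The Foxa2 change in SMARCA5 was 0.063 with a pseudocount of 2% and 0.17 with −log10 q of at least 5, and ran from −1.81 to 1.26 without 1 library. Windows called in the mean ran from 0 to 197 (main 15), in SMARCA4 from 0 to 111 (7) and in SMARCA5 from 0 to 842 (139), in CHD4 from 0 to 3 (0) and in CHD8 from 0 to 18 (0).

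The labels give no origin that same-numbered libraries share, and with 2 numbers a remodeler they were not treated as pairs, although in CHD4 the number went with peak width: same-numbered deviations correlated at 0.23 (CHD4), 0.32 (CHD8), −0.36 (SMARCA4) and −0.02 (SMARCA5). With the replicate block, 0 members and 0 windows were called in the mean, and 0 members in each remodeler. With the numbers crossed in SMARCA4, added after seeing the data, 0 members and 0 windows were called in the mean. In SMARCA4 and SMARCA5, peak names put the time before the target in replicate 2 of 0 h and replicate 1 of 12 h. In CHD4 they did so in replicate 1 of 12 h. What this order marks is not stated, and the numbers were not crossed in SMARCA5.

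Elements lost numbered 11 of 90 with at least 2 libraries (background 11.9%) and 1 of 52 with at least 8 (background 6.14%). With −log10 q of at least 5 they numbered 4 of 40 (background 7.04%). When a peak had to cover the larger part of an element, 5 of 63 were lost (background 7.51%) and 4 gained (background 11.2%). Gained ones numbered 1 of 52 with at least 8 libraries (background 9.75%). They numbered 2 of 40 with −log10 q of at least 5 (background 9.5%) and 2 of 38 with equal list length (background 11.9%). Without 1 library (added after seeing the data) 6 to 13 were lost and 3 to 15 gained, and the share over all elements was not computed for these counts. Promoters occupied in all libraries numbered 1 within 250 bp, 0 with −log10 q of at least 5, 2 with equal list length and 4 to 5 without 1 library. With 50 kb windows 2 CTCF peaks had a 12 h peak, and with 5 kb windows SMC1A had 5 peaks. The cause of these differences was not tested. With 2 libraries a group, 1 for CTCF and SMC1A, and no depth, a difference under the authors' threshold is not detectable.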
